A study of Mus musculus with 9 samples.

Results

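The genes described here encode 10 immunoglobulin-superfamily adhesion molecules of the nerve cell surface, namely the L1 family (Chl1, L1cam, Nrcam and Nfasc), NCAM and its relative (Ncam1 and Ncam2), and the contactins (Cntn1, Cntn2, Cntn3 and Cntn4). They were chosen by gene symbol among 22180 measured genes, and each of the 10 was read by 1 probe. Total RNA from alpha TC6 cells was hybridised to 9 Affymetrix Mouse Gene 2.0 ST arrays, with 3 for each group. Alpha TC6 is a mouse glucagon-secreting line of pancreatic alpha-cell origin. The groups were alphaIRS1KD cells, with a small hairpin RNA (shRNA) against Irs1, alphaIRS2KD cells, with an shRNA against Irs2, and control cells, with a nonsilencing shRNA. All 3 groups carried a lentiviral vector and were kept as stable lines under puromycin, with 1 shRNA line described per group and no clones named. Irs1 and Irs2 encode insulin receptor substrates, the adaptors that pass the signal of the insulin receptor on to kinases. The comparisons address which genes differ between lines in which either adaptor is depleted and the control line. With 1 line described per group, depletion and other differences between the lines cannot be told apart.

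Proteins of the L1 and NCAM families span the membrane or are held in it by a lipid anchor, and bind partners on the same or the neighbouring cell through immunoglobulin and fibronectin domains. Their cytoplasmic tails link to ankyrin, ezrin and kinases, while contactins have only a lipid anchor and act with membrane partners of the CASPR family. They are known from axon growth, guidance and the ordering of nodes of Ranvier, and NCAM is also made by endocrine cells of the islet.

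Values are log2 signals, so a difference of 1 is a change of 2-fold. Because probes differ in brightness, single genes were not ranked by signal. A place above or below the array median, and the average of a marker list, are rough guides only. Array medians, taken over all 41345 probes, lay between 5.03 and 5.11 (log2 signal). A gene was called changed at an adjusted p under 0.05 from limma, a linear model fitted to all genes with Benjamini-Hochberg adjustment over them. The sources do not say whether the 3 arrays of a group came from separate cultures, so these p-values measure the spread between the arrays, whose number limits the precision. Results with these arrays were known when the genes were listed, and the loss of Chl1 signal in alphaIRS1KD cells was one of them. The differences of Chl1 that involve alphaIRS1KD are therefore given as a description, with no p-value.

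Irs1 had log2 signals of 7.16, 7.12 and 7.22 in alphaIRS1KD cells, 8.10, 8.16 and 8.01 in alphaIRS2KD cells and 8.06, 8.09 and 8.07 in control cells. Irs2 had 10.44, 10.56 and 10.51 in alphaIRS1KD cells, 10.09, 10.02 and 10.11 in alphaIRS2KD cells and 10.72, 10.64 and 10.58 in control cells. Each targeted transcript was thus lowest on the 3 arrays of its own line. Against control the log2 fold change was -0.91 for Irs1 in alphaIRS1KD cells and -0.58 for Irs2 in alphaIRS2KD cells. Irs1 has 2 probes, of which the brighter is shown. Under the alternative settings described below, which include the mean of all probes, its change lay between -0.93 and -0.60. The 10 alpha-cell markers analysed were all above the array median on all 9 arrays, and Gcg, the glucagon gene, had a log2 signal of 13.21 to 13.25. Replicate 3 of alphaIRS2KD was closest to replicate 2 of alphaIRS1KD (r = 0.991 over all probes), whereas each of the other 8 arrays was closest to one of its own group, so calls that involve alphaIRS2KD are also given without that array.

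Of the 10 genes, Ncam1 was higher and Chl1 lower in alphaIRS1KD than in control cells. In alphaIRS2KD cells Ncam1 was again the single gene that passed the test, and none was lower. Between the knockdown lines, Chl1, Ncam2 and Cntn1 were lower in alphaIRS1KD than in alphaIRS2KD cells. In bulk RNA a smaller share of cells that make a transcript and less of it per cell cannot be told apart.

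The sequences just upstream of the start sites of these last 3 genes are shown, because these genes differed between the knockdown lines. They are the 250 bases before the start in RefSeq, GRCm38.p6, all on the plus strand. The Chl1 window is chr6:103510626-103510875, the Ncam2 window is chr16:81200447-81200696, and the Cntn1 window, the most upstream of 3 listed starts, is chr15:92050915-92051164. Capitals mark matches on either strand to GTAAACA (the core of forkhead sites), TTGGC (one arm of the nuclear factor I site), GGGCGG (the GC box) or CAGCTG (an E-box).
Chl1: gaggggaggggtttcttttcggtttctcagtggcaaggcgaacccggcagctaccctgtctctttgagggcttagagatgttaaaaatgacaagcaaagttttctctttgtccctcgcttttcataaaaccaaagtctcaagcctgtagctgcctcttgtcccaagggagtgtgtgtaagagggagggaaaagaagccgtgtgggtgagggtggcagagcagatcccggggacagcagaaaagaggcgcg
Ncam2: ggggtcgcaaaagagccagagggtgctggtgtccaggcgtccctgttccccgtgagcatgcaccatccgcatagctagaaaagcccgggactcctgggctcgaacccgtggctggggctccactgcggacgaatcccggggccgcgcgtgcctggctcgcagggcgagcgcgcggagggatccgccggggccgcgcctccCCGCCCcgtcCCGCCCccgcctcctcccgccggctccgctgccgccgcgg
Cntn1: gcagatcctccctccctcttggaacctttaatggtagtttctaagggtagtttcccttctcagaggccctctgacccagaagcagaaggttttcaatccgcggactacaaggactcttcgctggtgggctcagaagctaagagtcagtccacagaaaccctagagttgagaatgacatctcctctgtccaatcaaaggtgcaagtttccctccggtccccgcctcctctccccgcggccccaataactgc
The Ncam2 window held 2 GC boxes and a G+C content of 75.2%, whereas the Chl1 and Cntn1 windows held none of the motifs, with G+C contents of 52.4% and 53.6%. The full nuclear factor I palindrome, in which the arm TTGGC is followed after a gap of 5 bases by its reverse complement, was searched too and was in none of the windows of these genes. Over the 32851 promoter windows of this length, GTAAACA was in 3.17%, the palindrome in 0.0365%, TTGGC in 41.5%, GGGCGG in 32.7% and CAGCTG in 13%. Of the 10 genes, 9 had an entry, and Ncam1 did not. A match is a run of letters only, and its absence says nothing of a factor.

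Ncam1, the neural cell adhesion molecule that binds itself between cells and carries polysialic acid, was higher in both knockdown lines than in control cells. It had log2 signals of 10.19, 10.26 and 10.35 in alphaIRS1KD cells, 10.08, 9.96 and 10.06 in alphaIRS2KD cells and 9.54, 9.51 and 9.41 in control cells. The 3 groups did not overlap, with alphaIRS1KD highest and control lowest. The signal was 1.71-fold higher in alphaIRS1KD than control cells (log2 fold change 0.78 with SE 0.06, limma adjusted p = 1.47e-04). It was 1.46-fold higher in alphaIRS2KD than control cells (log2 fold change 0.54 with SE 0.06, limma adjusted p = 0.0038), and without replicate 3 of alphaIRS2KD the log2 fold change was 0.53 (adjusted p = 0.0139). The difference between the knockdown lines was 0.23 on the log2 scale (95% confidence interval 0.09 to 0.38, adjusted p = 0.0915), which did not pass the test. Both comparisons with control share the 3 control arrays.

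Chl1, the close homologue of L1, is a membrane protein that takes part in semaphorin responses with neuropilins. Its log2 signals were 4.29, 4.54 and 4.67 in alphaIRS1KD cells, 6.35, 6.61 and 6.08 in alphaIRS2KD cells and 5.87, 5.65 and 5.87 in control cells. No 2 groups overlapped, and only the alphaIRS1KD arrays lay below the array medians. The signal was 2.46-fold lower in alphaIRS1KD than control cells (log2 fold change -1.30 with SE 0.14), and 3.60-fold lower than in alphaIRS2KD cells (-1.85, SE 0.14, and -1.98 without replicate 3 of alphaIRS2KD). In alphaIRS2KD cells it differed from control cells by 0.55 on the log2 scale (95% confidence interval 0.22 to 0.88), and this did not pass the test (adjusted p = 0.146 from limma, 0.0569 without replicate 3).

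Cntn1, a lipid-anchored contactin that pairs with CASPR at nodes and binds receptor phosphatases, had log2 signals of 5.21, 5.05 and 4.56 in alphaIRS1KD cells, 5.64, 5.91 and 5.73 in alphaIRS2KD cells and 5.29, 5.30 and 5.15 in control cells. The alphaIRS2KD arrays were above all others, and those of alphaIRS1KD and control overlapped. It was 1.76-fold lower in alphaIRS1KD than alphaIRS2KD cells (log2 fold change -0.82 with SE 0.15, limma adjusted p = 0.0189, 0.0445 without replicate 3 of alphaIRS2KD). The call was lost without replicate 2 of alphaIRS2KD (log2 fold change -0.74, adjusted p = 0.0731). Against control cells the log2 fold changes were -0.30 in alphaIRS1KD cells (adjusted p = 0.351) and 0.51 in alphaIRS2KD cells (adjusted p = 0.204), and neither passed the test. Without replicate 3 of alphaIRS1KD the first was -0.115 (adjusted p = 0.663), and the second, unchanged in size, passed the test (adjusted p = 0.0406).

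Ncam2, a relative of NCAM known from the olfactory system, had log2 signals of 4.01, 4.07 and 3.75 in alphaIRS1KD cells, 4.54, 4.76 and 4.60 in alphaIRS2KD cells and 4.24, 4.28 and 4.68 in control cells. All 9 values were below the array medians, and the alphaIRS1KD arrays were below all others. It was 1.61-fold lower in alphaIRS1KD than alphaIRS2KD cells (log2 fold change -0.69 with SE 0.13, limma adjusted p = 0.0212, 0.0461 without replicate 3 of alphaIRS2KD), a call that 7 of 20 alternative settings lost. Without replicate 1 or 3 of alphaIRS1KD, or replicate 1 or 2 of alphaIRS2KD, the adjusted p was 0.0622, 0.0758, 0.0507 and 0.0777. Against control cells the log2 fold change was -0.46 in alphaIRS1KD cells (adjusted p = 0.0816) and 0.23 in alphaIRS2KD cells (adjusted p = 0.593).

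**Figure D1:**
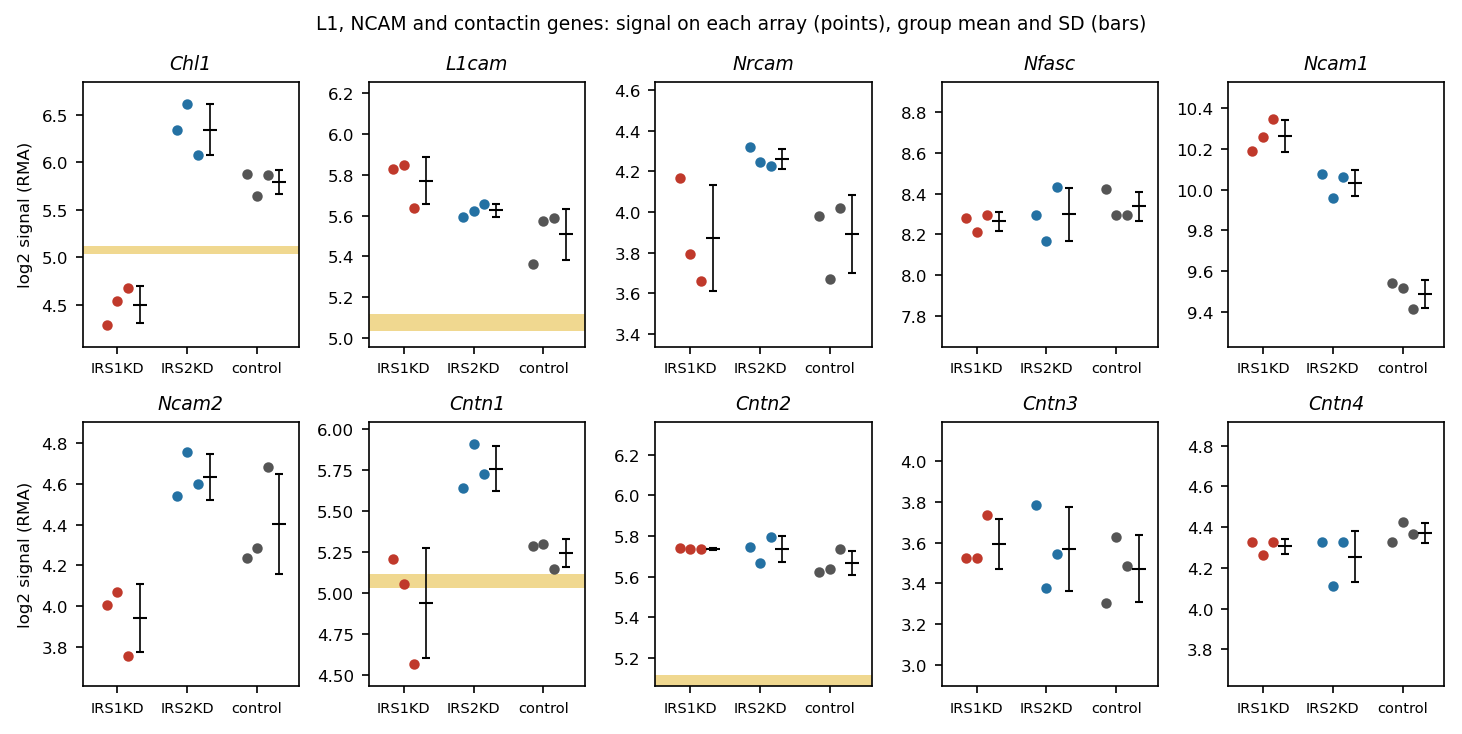
Log2 signal of each of the 10 genes on each array, by group, with the group mean and SD (n = 3) as a bar beside the points; each panel has its own axis and the band spans the array medians. Chl1 lies at 4.29 to 4.67 in alphaIRS1KD cells, against 6.08 to 6.61 in alphaIRS2KD and 5.65 to 5.87 in control cells, and Ncam1 is highest in alphaIRS1KD and lowest in control cells.

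The other members of the L1 family did not pass the test in any comparison. L1cam, the founding L1 adhesion molecule of growing axons, had log2 signals of 5.83, 5.85 and 5.64 in alphaIRS1KD cells, 5.59, 5.62 and 5.66 in alphaIRS2KD cells and 5.36, 5.57 and 5.59 in control cells. All arrays of both knockdown lines were above all control arrays, with log2 fold changes of 0.26 in alphaIRS1KD (95% confidence interval 0.08 to 0.44, adjusted p = 0.101) and 0.12 in alphaIRS2KD (-0.06 to 0.30, adjusted p = 0.675). Nrcam, which binds ankyrin at the axon initial segment, had 4.16, 3.79 and 3.66 in alphaIRS1KD cells, 4.32, 4.24 and 4.23 in alphaIRS2KD cells and 3.98, 3.67 and 4.02 in control cells. The alphaIRS2KD arrays were above all others, but the differences of 0.37 from control cells (adjusted p = 0.334) and of -0.39 for alphaIRS1KD against alphaIRS2KD (adjusted p = 0.190) did not pass the test. Nfasc, which encodes neurofascin, the ankyrin-binding organiser of nodes, had 8.28, 8.21 and 8.30 in alphaIRS1KD cells, 8.30, 8.17 and 8.43 in alphaIRS2KD cells and 8.42, 8.30 and 8.30 in control cells. Its groups overlapped, and the interval of the log2 fold change was -0.24 to 0.09 in alphaIRS1KD and -0.21 to 0.13 in alphaIRS2KD against control.

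The remaining contactins differed little. Cntn2, the axonal TAG-1 protein, had log2 signals of 5.74, 5.74 and 5.74 in alphaIRS1KD cells, 5.74, 5.67 and 5.80 in alphaIRS2KD cells and 5.63, 5.64 and 5.74 in control cells. Cntn3 and Cntn4, contactins of the brain, were below the array medians on all 9 arrays, at log2 signals of 3.30 to 3.78 and 4.11 to 4.42. The groups of these 3 genes overlapped in all comparisons, and their log2 fold changes lay between -0.12 and 0.12. Some deposited values repeat exactly between arrays, as they do for 47.3% of all probes: Cntn4 has the same value on 5 arrays, Nfasc on 4, Cntn2 on 3 and Cntn3 on 2. Cntn5 and Cntn6, the contactins not in the group described, were not called in any comparison, and 0 of them had an unadjusted p under 0.05 in limma.

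In alphaIRS1KD against control cells, 1 of the 10 genes was called higher, beside 2.98% of all genes tested, and 1 lower, beside 3.68%, so 2 of 10 in either direction, beside 6.66%. In alphaIRS2KD against control cells 1 was called higher, beside 0.893%, and 0 lower, beside 0.694%, so 1 in either direction, beside 1.59%. In alphaIRS1KD against alphaIRS2KD cells 0 were called higher, beside 1.71%, and 3 lower, beside 2.42%, so 3 in either direction, beside 4.13%. At least 1 comparison called 4 of the 10, beside 7.9% of all genes. Called in alphaIRS1KD in the same direction against both other groups was 1 (Chl1), beside 3.01%, and called against control in opposite directions in the knockdown lines were 0, beside 0.0857%. At an unadjusted p under 0.05, 4, 4 and 5 of the 10 passed in these comparisons, beside 17.9%, 10.8% and 15.8% of all genes. The groups did not overlap for 4, 5 and 5 of the 10, beside 25.5%, 13.7% and 18.4% of all genes. The median log2 fold change was -0.04, 0.17 and -0.02, beside 0.01, -0.00 and 0.01 over all genes. As the list was drawn up with the difference of Chl1 known, these counts are descriptions.

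**Figure D2:**
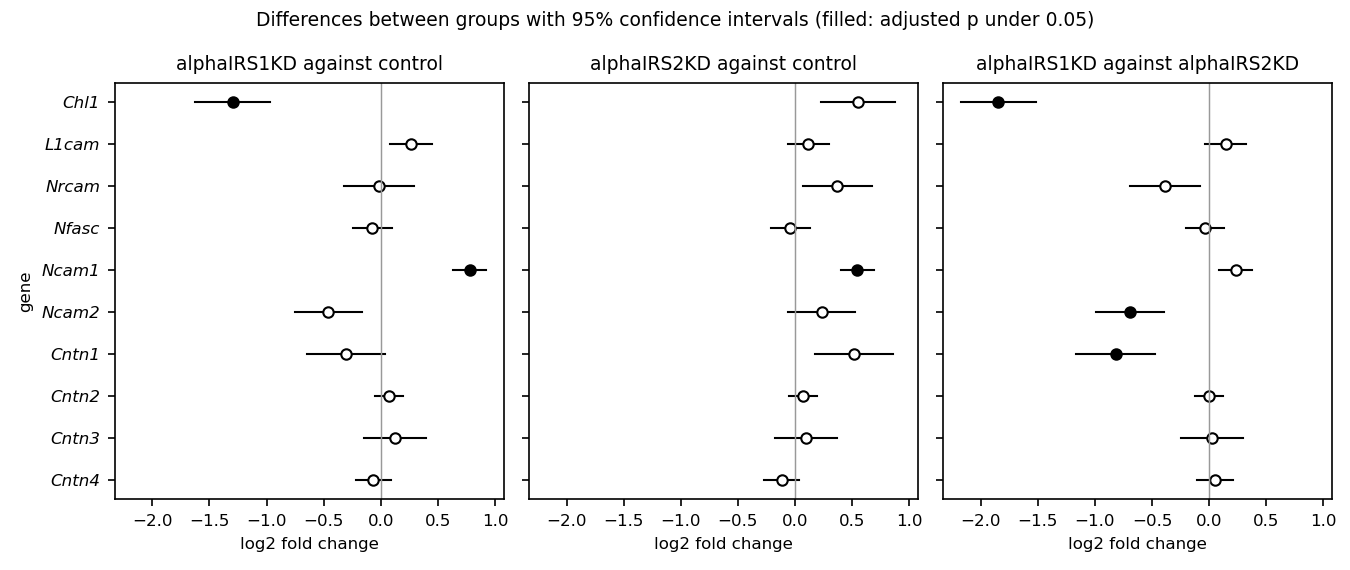
Log2 fold change of the 10 genes (rows) in the 3 comparisons (panels) with 95% confidence intervals from limma; filled points had an adjusted p under 0.05. Ncam1 is right of 0 in both comparisons with control, while Chl1, Ncam2 and Cntn1 are left of 0 in alphaIRS1KD against alphaIRS2KD, at -1.85, -0.69 and -0.82. The filled points of Chl1 are descriptions, as these differences were known when the genes were listed.

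Proteins that act beside these adhesion molecules on the same cell were read as a list of 23, of which 22 were measured. In alphaIRS1KD against control cells 3 were higher (Gfra1, Fgfr2 and Cntnap2) and 2 lower (Nrp2 and Cntnap1). In alphaIRS2KD against control cells 3 were higher (Gfra1, Cntnap2 and Plxna2) and 0 lower, and between the knockdown lines 1 was higher (Gfra1) and 3 lower (Nrp2, Cntnap2 and Plxna2) in alphaIRS1KD. The median log2 fold change of the 22 was 0.03, 0.06 and -0.09, beside 0.01, -0.00 and 0.01 over all genes. Of all genes tested, 6.66%, 1.59% and 4.13% were called in these comparisons in either direction. These shares also stand beside the counts of the lists below. The alphaIRS1KD differences of Nrp2, Gfra1 and B3gat1 were also known when the lists were made and have no p-value here. The counts that include them are descriptions.

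Nrp2, a neuropilin and semaphorin receptor, had log2 signals of 6.54, 6.25 and 6.33 in alphaIRS1KD cells, 8.91, 8.92 and 8.97 in alphaIRS2KD cells and 8.61, 8.60 and 8.49 in control cells. No 2 groups overlapped. It was 4.57-fold lower in alphaIRS1KD than control cells (log2 fold change -2.19 with SE 0.08), and in alphaIRS2KD cells it differed from control by 0.37 (adjusted p = 0.058). Plxna2, a plexin that signals for semaphorins, had 6.75, 6.60 and 6.62 in alphaIRS1KD cells, 7.02, 7.05 and 7.13 in alphaIRS2KD cells and 6.75, 6.56 and 6.57 in control cells. The alphaIRS2KD arrays were above all others, with a log2 fold change of 0.44 against control (SE 0.07, limma adjusted p = 0.021), a call lost without replicate 3 of alphaIRS2KD (log2 fold change 0.41, adjusted p = 0.0532). Sema3a, the secreted semaphorin, was higher in alphaIRS1KD than in control cells (5.68, 5.66 and 5.60, against 4.92, 5.05 and 5.15, log2 fold change 0.61, adjusted p = 0.0034). Nrp1, the other neuropilin of the list, was below the array medians on all 9 arrays (log2 signals of 3.62 to 3.79). It was not called in any comparison.

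Cntnap2, the CASPR2 partner of Cntn2, had log2 signals of 6.86, 6.87 and 6.85 in alphaIRS1KD cells, 7.58, 7.44 and 7.46 in alphaIRS2KD cells and 6.66, 6.59 and 6.67 in control cells. It was 1.80-fold higher in alphaIRS2KD than control cells (log2 fold change 0.85 with SE 0.05, limma adjusted p = 2.1e-04), and no 2 groups overlapped. Cntnap1, the CASPR partner of Cntn1, was lower in alphaIRS1KD than in control cells by a log2 fold change of -0.26 (adjusted p = 0.013).

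NCAM can act as a receptor for GDNF together with Gfra1 and can engage fibroblast growth factor receptors. Gdnf was below the array medians on all 9 arrays (log2 signals of 3.94 to 4.43) and was not called in any comparison. Gfra1 had log2 signals of 8.95, 9.05 and 9.14 in alphaIRS1KD cells, 7.76, 7.79 and 7.53 in alphaIRS2KD cells and 6.55, 6.57 and 6.79 in control cells. The groups did not overlap and stood in the same order as for Ncam1, at 5.31-fold (log2 fold change 2.41 with SE 0.09) and 2.08-fold (log2 fold change 1.05 with SE 0.09) above control. Gfra1 has 2 probes, and the signals, folds and group order above are those of the brighter. With the mean of the 2 probes the log2 fold changes were 1.47 and 0.52. The dimmer probe therefore showed smaller differences from control in both lines. The alphaIRS2KD call was lost with the methods' t-test after Benjamini-Hochberg adjustment. Fgfr2 was higher in alphaIRS1KD than in control cells (8.05, 8.30 and 8.19, against 7.53, 7.54 and 7.62, log2 fold change 0.62, adjusted p = 0.0045).

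Of 6 enzymes that build the glycans of these proteins, all were measured. St8sia4, which makes the polysialic acid of NCAM, had log2 signals of 6.62, 6.60 and 6.63 in alphaIRS1KD cells, 7.25, 7.17 and 6.66 in alphaIRS2KD cells and 5.68, 5.84 and 5.64 in control cells. Both knockdown lines were above control on all arrays, by a log2 fold change of 0.90 in alphaIRS1KD (SE 0.14, limma adjusted p = 0.0049) and 1.31 in alphaIRS2KD (SE 0.14, adjusted p = 0.0023). B3gat1, which starts the HNK-1 epitope, had 7.82, 7.88 and 8.12 in alphaIRS1KD cells, 6.01, 6.24 and 6.19 in alphaIRS2KD cells and 6.13, 5.99 and 5.90 in control cells. The alphaIRS1KD arrays stood 3.82-fold above control (log2 fold change 1.93 with SE 0.10), while alphaIRS2KD and control overlapped. The other 4 enzymes were not called in any comparison.

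Of 21 cytoplasmic adaptors and kinases, 19 were measured. In alphaIRS2KD against control cells 2 were higher. Gap43, the growth-cone protein downstream of NCAM, had log2 signals of 6.40, 6.29 and 5.99 in alphaIRS2KD cells, against 5.22, 5.15 and 5.30 in control cells (log2 fold change 1.00 with SE 0.14, limma adjusted p = 0.0084). Ank3, the ankyrin-G that binds L1-family tails, had 8.78, 8.71 and 8.87, against 8.45, 8.44 and 8.38 (log2 fold change 0.36, adjusted p = 0.016). In neither gene did alphaIRS2KD overlap with control. In alphaIRS1KD against control cells only Ezr, the ezrin linker to actin, was called (6.93, 7.02 and 6.83, against 7.47, 7.46 and 7.25, log2 fold change -0.47, adjusted p = 0.0059). Between the knockdown lines, Gap43, Ank3 and Ezr were lower in alphaIRS1KD (log2 fold changes of -1.16, -0.47 and -0.42).

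**Figure D3:**
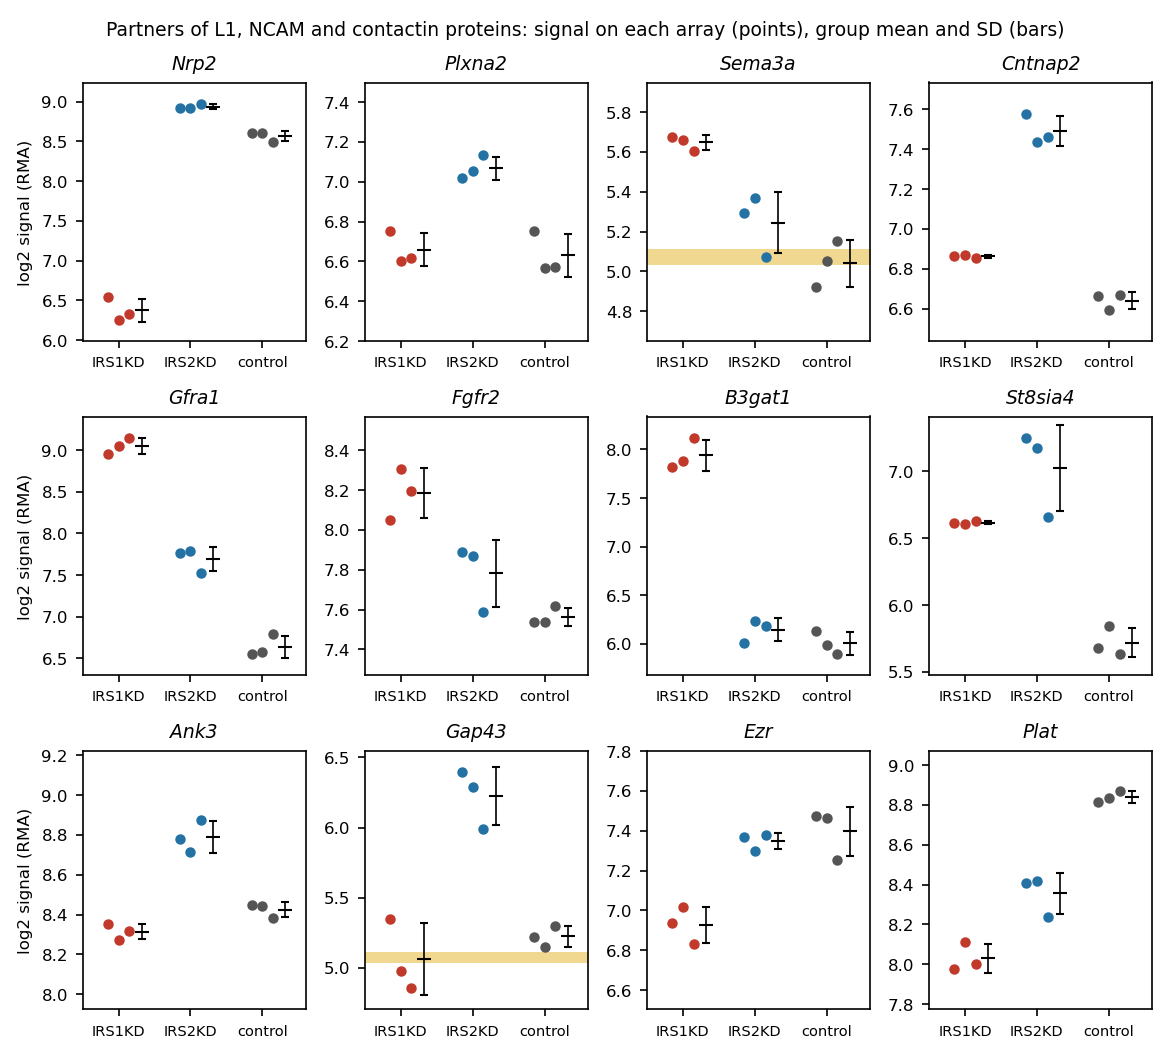
Log2 signal of 12 partner genes on each array, by group, with the group mean and SD (n = 3) as a bar beside the points; each panel has its own axis and the band, where in range, spans the array medians. Gfra1 stands highest in alphaIRS1KD and lowest in control cells, and Gap43 and Cntnap2 are highest in alphaIRS2KD cells.

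Among 18 extracellular ligands and receptor phosphatases, 2 were higher (Sema3a and Ptpra) and 1 lower (Ncan) in alphaIRS1KD than in control cells. None was called in alphaIRS2KD against control by limma, with 4 of the 18 at an unadjusted p under 0.05, beside 10.8% of all genes. Sema3a was higher in alphaIRS1KD than in alphaIRS2KD cells. Ptpra, a receptor phosphatase that binds contactin and NCAM, stood 0.25 higher on the log2 scale (adjusted p = 0.015), and Ncan, the proteoglycan neurocan, showed a difference of -0.42 (adjusted p = 0.043). Of 13 genes listed for the cutting of these proteins, which include subunits of gamma-secretase, 12 were measured. Plat, tissue plasminogen activator, had log2 signals of 7.97, 8.11 and 8.00 in alphaIRS1KD cells, 8.41, 8.42 and 8.24 in alphaIRS2KD cells and 8.81, 8.83 and 8.87 in control cells. It was lower in both lines, by a log2 fold change of -0.81 in alphaIRS1KD (adjusted p = 1.4e-04) and -0.48 in alphaIRS2KD (adjusted p = 0.0073), and the groups did not overlap. Plat and Ncstn, the nicastrin subunit of gamma-secretase, were lower in alphaIRS1KD than in alphaIRS2KD cells. The calls of Ncan (kept in 6 of 21 alternatives), Sema3a between the knockdown lines (8 of 21) and Plat between them (10 of 21) depended on the settings. So did those of Ncstn (13 of 21), Ptpra (14 of 21), Plxna2 against control (11 of 21) and Cntnap2 in alphaIRS1KD (11 of 21). The same held for Ank3 in alphaIRS2KD against control (12 of 21) and Cntnap1 (16 of 21). Between the knockdown lines it held for Ezr (15 of 21) and Plxna2 (16 of 21). The calls of St8sia4 and Gap43 in alphaIRS2KD against control were lost only with the methods' t-test after Benjamini-Hochberg adjustment. That of Gap43 between the knockdown lines was lost there too. With its 2 probes averaged, Ncan stood at -0.22 on the log2 scale (adjusted p = 0.123). Of the 18 calls of partners that involve alphaIRS2KD, 16 were also made without its replicate 3. The calls lost were that of Plxna2 against control and that of Sema3a between the knockdown lines (log2 fold change 0.32, adjusted p = 0.0547). Without this array the log2 fold change against control was 0.87 for Cntnap2, 1.49 for St8sia4, 1.12 for Gap43, 0.32 for Ank3 and -0.43 for Plat. None of the 7 measured partners at the axon initial segment and node was called by limma. At an unadjusted p under 0.05, 1, 1 and 3 passed in the 3 comparisons, beside 17.9%, 10.8% and 15.8% of all genes.

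Since these genes are best known from nerve cells, markers of other cell types were read in the same arrays. The mean log2 signal of 10 neuron markers was 8.21 to 8.26 in alphaIRS1KD cells, 8.33 to 8.36 in alphaIRS2KD cells and 8.25 to 8.30 in control cells. Of them 9 were above the array median on all arrays of each group. The paper examined Snap25 as a hormone secretion gene in these cells, so this list is not specific to neurons. The 6 Schwann cell and glia markers averaged 5.37 to 5.40, 5.21 to 5.31 and 5.19 to 5.32 in the same groups. The 7 measured beta-cell markers averaged 5.60 to 5.64 in alphaIRS1KD cells, 5.63 to 5.96 in alphaIRS2KD cells and 5.55 to 5.64 in control cells. Iapp had 5.11, 6.35 and 6.44 in alphaIRS2KD cells, against 4.61 to 4.86 in control cells (log2 fold change 1.19, limma adjusted p = 0.125). In this comparison Ins2 stood at 0.72, Ucn3 at 0.14 and Nkx6-1 at 0.04. Slc2a2, Pdx1 and Mafa stood at -0.15, -0.18 and -0.24, and none of the 7 passed the test. The 8 fibroblast and endothelial markers averaged 5.02 to 5.03, 4.958 to 5.104 and 4.98 to 5.08, and the 7 measured delta, PP and acinar markers 4.33 to 4.43, 4.24 to 4.36 and 4.22 to 4.33. Of these non-alpha lists only that of neurons held called genes, Elavl4 higher in both knockdown lines than in control, and Snap25 and Syp lower in alphaIRS1KD than in alphaIRS2KD. The alpha-cell list held 3 higher (Irx1, Irx2 and Pax6) and 2 lower (Ttr and Chga) in alphaIRS1KD against control. Irx1 was also higher in alphaIRS2KD than in control cells (log2 fold change 0.35). Between the knockdown lines Pax6 was higher (0.37) and Ttr and Chga were lower (-0.72 and -0.49) in alphaIRS1KD. The part of these markers in the differences was not tested.

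For each of the 4 genes called with at least 1.5-fold, the 3 genes of most similar profile were found by the root mean square difference over the 9 arrays after centring on the control mean. For Chl1 they were Nectin3, an adhesion molecule (0.194), Penk, the proenkephalin precursor (0.203), and Oxr1 (0.225). For Ncam1 they were Robo2, the Slit receptor (0.0699), Adgrb3, an adhesion receptor (0.0818), and Nptx1, a neuronal pentraxin (0.0914). For Ncam2 they were Gm15091 (0.146), Septin6 (0.151) and Lhx2 (0.153), and for Cntn1 they were Atp8b1 (0.176), Klhl29 (0.178) and Bend6 (0.191).

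Chl1 lies among contactin genes on mouse chromosome 6. The 5 measured genes on either side, in order, are Gxylt2, Ppp4r2, Pdzrn3, Gm9871 and Cntn3 before it and Cntn6, Gm19757, Cntn4, Il5ra and Crbn after it. None of these 10 was called in any comparison. Their log2 fold changes were between -0.07 and 0.19 in alphaIRS1KD and between -0.12 and 0.10 in alphaIRS2KD against control, beside -1.30 and 0.55 for Chl1. Gm9871, Cntn3, Cntn6, Gm19757, Cntn4 and Il5ra were below the array medians on all arrays (log2 signals of 1.77 to 4.42). A fall could hardly show in these dim genes.

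**Figure D4:**
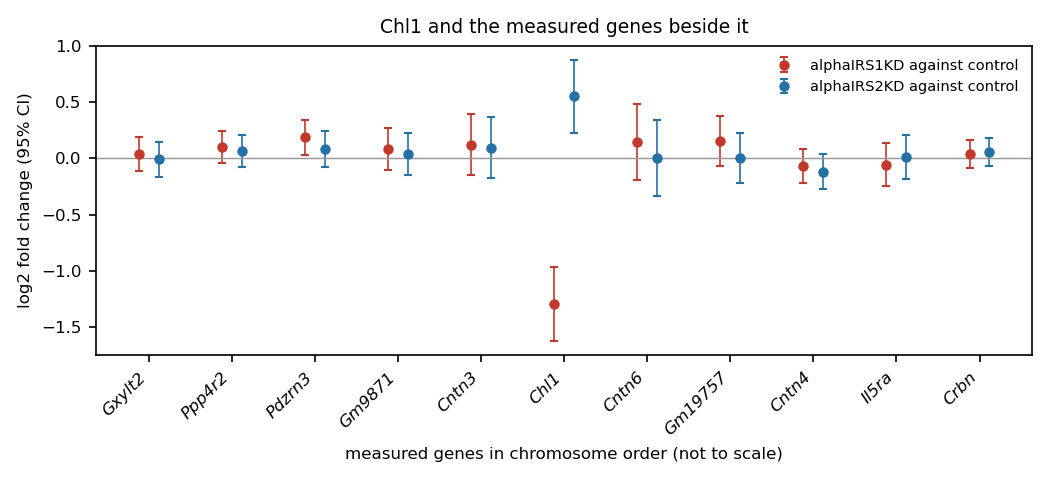
Log2 fold change against control, with 95% confidence intervals from limma, of Chl1 and the 5 measured genes on either side in chromosome order, for alphaIRS1KD and alphaIRS2KD cells. Chl1 stands at -1.30 and 0.55 and its neighbours between -0.12 and 0.19. Gm9871, Cntn3, Cntn6, Gm19757, Cntn4 and Il5ra were below the array medians on all arrays.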

How the data were processed

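RNA of alphaIRS1KD, alphaIRS2KD and control cells was hybridised to 9 Affymetrix Mouse Gene 2.0 ST arrays. The authors turned scanned intensities into log2 signals by RMA (version not given), which corrects background, normalizes between arrays and summarizes probes, and these deposited log2 values were used as they stand. Of 41345 probes, 23521 carry 1 gene symbol, 1820 several and 16004 none. Only the first kind was used, and 1 probe shared by Ncam1 and another gene was left out. For 1082 genes with several probes the brightest was kept, which gave 22180 genes. Groups were compared with limma 3.58.1 in R 4.3.3, the 3 groups in 1 fit, with Benjamini-Hochberg adjustment over all genes; the fit was tested on simulated data.

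The genes described, the lists of partners and markers and the motifs were chosen with earlier results of these data known. The text names all 10 genes, Irs1 and Irs2, called genes of each list (up to 4 with the largest changes, or all where 5 or fewer were counted), the 3 most similar profiles and the neighbours of Chl1. Gcg, the beta-cell markers, Nrp1 and Gdnf were named outside this rule, after their values were seen. Promoter windows and the gene order come from RefSeq (GRCm38.p6). The build behind the array annotation is not given in the sources used here. Alternatives were the Student test of the methods, other thresholds, a replicate block, quantile normalization or median centring, a filter on dim genes, the mean of all probes, only the compared groups, another prior spread, array weights and each array left out.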

Additional observations from a re-analysis of the deposited data

Results flagged for a closer look

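For 3 genes the 2 knockdown lines differed from each other, by the direct comparison of alphaIRS1KD against alphaIRS2KD in limma. Chl1 had a log2 fold change of -1.85 between these lines, and this difference was known when the genes were listed. For Ncam2 it was -0.69 (adjusted p = 0.0212) and for Cntn1 -0.82 (adjusted p = 0.0189). In all 3 the log2 fold change against control was below 0 in alphaIRS1KD and above 0 in alphaIRS2KD cells. Picking genes by the difference between the lines favours such opposite signs. Of these differences from control, that of Chl1 in alphaIRS1KD cells was known when the genes were listed and is a description. Those of Ncam2 and Cntn1 in either line, and of Chl1 in alphaIRS2KD cells, did not pass the test.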

How the results depend on the processing

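No log2 fold change of the 10 genes that was called changed sign under the 21 alternatives (20 for Nrcam, Ncam2, Cntn3 and Cntn4, which the filter on the dimmest 30 percent leaves out). The count of these genes higher in alphaIRS2KD than in control cells, 1, became 4 with the methods' t-test unadjusted, 0 with it after Benjamini-Hochberg, 0 when 1.5-fold was also required, and 1 to 2 with an array left out. The count higher in alphaIRS1KD than in alphaIRS2KD cells, 0, became 1 with the methods' t-test unadjusted, 1 without dim genes and 1 with trend and robust estimation, Ncam1 in each. The count lower, 3, became 0 with the methods' t-test after Benjamini-Hochberg, 1 at an adjusted p under 0.01, and 1 to 3 with an array left out, the lowest without alphaIRS2KD replicate 2. Ncam2 lost its call in 7 of 20 alternatives and Cntn1 in 4 of 21. Equal replicate numbers did not pair the samples (correlations of deviations -0.0835 to 0.0173). With the replicate block 2 genes were lower in alphaIRS1KD than in alphaIRS2KD cells, Ncam2 losing its call, and over all genes 1134, 218 and 613 were called.

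Over all genes, 1477, 352 and 916 were called for alphaIRS1KD against control, for alphaIRS2KD against control and between the knockdown lines. In the same order the counts were 3815, 1773 and 2544 with the methods' t-test unadjusted, 902, 58 and 138 with it after Benjamini-Hochberg, 755, 151 and 405 at an adjusted p under 0.01, 399, 133 and 279 with 1.5-fold, 1541, 168 and 511 with only the compared groups, 2001, 549 and 1346 with trend and robust estimation, and 952 to 1722, 178 to 384 and 528 to 1132 with an array left out.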
